A study of Mus musculus with 7 samples.

Results

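The transcripts described here come from 43 genes of the mitotic cell cycle, taken by symbol from a list of 23 genes of mitosis and 20 genes of DNA replication and entry into S phase. All 43 were found in all 7 libraries, out of 22363 gene symbols that could be used. Each library was poly-A RNA of cultured fetal mouse kidney, measured by sequencing. All kidneys were of the strain C57BL/6 and carried an activated form of beta-catenin, through which canonical Wnt signals reach their target genes. E2-2, a basic helix-loop-helix transcription factor encoded by Tcf4, was deleted in 3 libraries and wildtype in 4. No library with unactivated beta-catenin was analysed here, so the comparison is between E2-2 genotypes on one activated background. Dissection was at 10.5 days post coitum, when the pregnant mice received tamoxifen at 2 mg per 40 g of body weight, and culture lasted 3 to 4 days. Which library had 3 days and which had 4 is not given in the labels, nor are the Cre driver and the alleles. Whether the libraries came from separate animals is not stated either, so p-values measure the spread between these libraries, which may be technical. Replicates are numbered in order of deposit.

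Dividing cells license their replication origins with the MCM helicase, copy DNA in S phase with the PCNA clamp, and enter mitosis when the cyclin B and Cdk1 kinase drives chromosome condensation and spindle assembly. Many replication genes are transcribed at the G1 to S boundary through E2F factors. Many mitotic genes are instead transcribed in G2 and M through the MuvB complex with B-Myb and FoxM1, at a promoter element called CHR (cell cycle genes homology region). Many of their promoters also hold CCAAT boxes, which are bound by another factor, NF-Y. In the fetal kidney, the cap mesenchyme marked by Six2 and Cited1 and the tips of the ureteric bud are dividing populations. In RNA of a whole organ, fewer dividing cells and less of these transcripts per cell cannot be told apart.

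The promoters are shown first, because they hold letters that many of these genes share and that played no part in their choice. RefSeq promoter windows (build GRCm38.p6, from 250 bases before to 50 bases after a transcription start) matched 34 of the 43 genes with 37 windows, since some genes had more than 1. Mcm4, Kif20a, Tpx2, Aurkb, Foxm1, Gins2, Ccna2, Ccne2 and Gins1 were not matched. The motifs searched on both strands, with overlapping matches counted separately, were the CHR in the form TTTGAA or in the form TTCGAA, the box CCAAT, and an E2F site. The E2F site was searched as TTGGCGC and also as TTCCCGC, with the further forms TTCGCGC and also TTGCCGC. The following 4 sequences are the 200 bases before the start of 2 mitosis genes and 2 helicase genes, read 5′ to 3′ in the direction of the gene, with each motif or its reverse complement in capitals.
Top2a, chr11:99024190-99024389, minus strand: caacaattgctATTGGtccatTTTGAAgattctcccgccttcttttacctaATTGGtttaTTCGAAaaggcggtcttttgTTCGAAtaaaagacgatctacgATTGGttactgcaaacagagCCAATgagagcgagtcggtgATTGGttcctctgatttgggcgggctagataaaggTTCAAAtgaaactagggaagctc
Cdk1, chr10:69352913-69353112, minus strand: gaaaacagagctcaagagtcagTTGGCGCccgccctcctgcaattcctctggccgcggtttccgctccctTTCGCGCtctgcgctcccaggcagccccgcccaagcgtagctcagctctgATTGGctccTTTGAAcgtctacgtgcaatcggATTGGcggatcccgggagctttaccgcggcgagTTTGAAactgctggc
Mcm5, chr8:75109309-75109508, plus strand: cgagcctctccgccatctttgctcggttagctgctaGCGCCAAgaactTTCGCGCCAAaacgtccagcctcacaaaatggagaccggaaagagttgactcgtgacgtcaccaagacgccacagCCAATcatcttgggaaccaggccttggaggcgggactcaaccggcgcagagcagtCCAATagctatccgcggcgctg
Mcm6, chr1:128359706-128359905, minus strand: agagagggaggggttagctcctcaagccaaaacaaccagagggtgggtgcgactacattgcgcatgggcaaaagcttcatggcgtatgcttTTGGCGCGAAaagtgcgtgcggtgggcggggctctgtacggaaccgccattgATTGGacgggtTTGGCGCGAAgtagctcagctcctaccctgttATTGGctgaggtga
The Top2a stretch held CHR and CCAAT letters and no E2F letters. That of Cdk1 held letters of all 3 kinds. Both helicase genes held overlapping E2F matches and CCAAT letters, and no CHR letters. These 4 stretches are examples with many matches and do not stand for every gene. The window of Mcm2, also a helicase gene, held CHR and CCAAT letters and no E2F letters. Those of E2f1 and Ccne1 held none of the motifs.

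Among the windows of mitosis genes, 15 of 19 (78.9%) held CHR letters, against 2 of 18 (11.1%) of the replication windows and 19.2% of all 32851 promoter windows of the same length. E2F letters had the opposite distribution, in 3 of 19 mitosis windows (15.8%) and 12 of 18 replication windows (66.7%), against 9.6% of all windows. CCAAT letters were found in 17 of 19 (89.5%) and 12 of 18 (66.7%), against 37.4% of all. CHR and CCAAT letters stood together in 78.9% of mitosis windows, 11.1% of replication windows and 7.5% of all windows. Windows of 1 gene share sequence, and these shares describe letters, not binding.

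Levels are given as FPKM, the fragments of a gene per kilobase of its transcript, relative to all mapped fragments. The 43 transcripts had one pattern in common. Each of them had its lowest value of the 7 libraries in E2-2 deleted replicate 2, in 23 of 23 mitosis genes and 20 of 20 replication genes, whereas 44.4% of all 13469 genes tested had theirs there. As a percentage of the mean of the 4 wildtype libraries, deleted replicate 2 stood at 41.1% (Ccnb1) to 66.3% (Prc1) for mitosis genes, with a median of 55.7%. For replication genes it stood at 36.7% (Gins2) to 70.3% (Rrm2), with a median of 51.8%. The median over all genes was 87.3%. In deleted replicates 1 and 3 the medians were 95.4% and 96.3% for mitosis genes and 95.5% and 89.6% for replication genes. Over all genes they were 98.8% and 100.9%. As log2(FPKM + 1), 19 of 23 mitosis and 11 of 20 replication genes were below the wildtype mean in deleted replicate 1, against 6875 of 13469 genes. In deleted replicate 3 these were 14 of 23 and 16 of 20, against 6014.

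**Figure D1:**
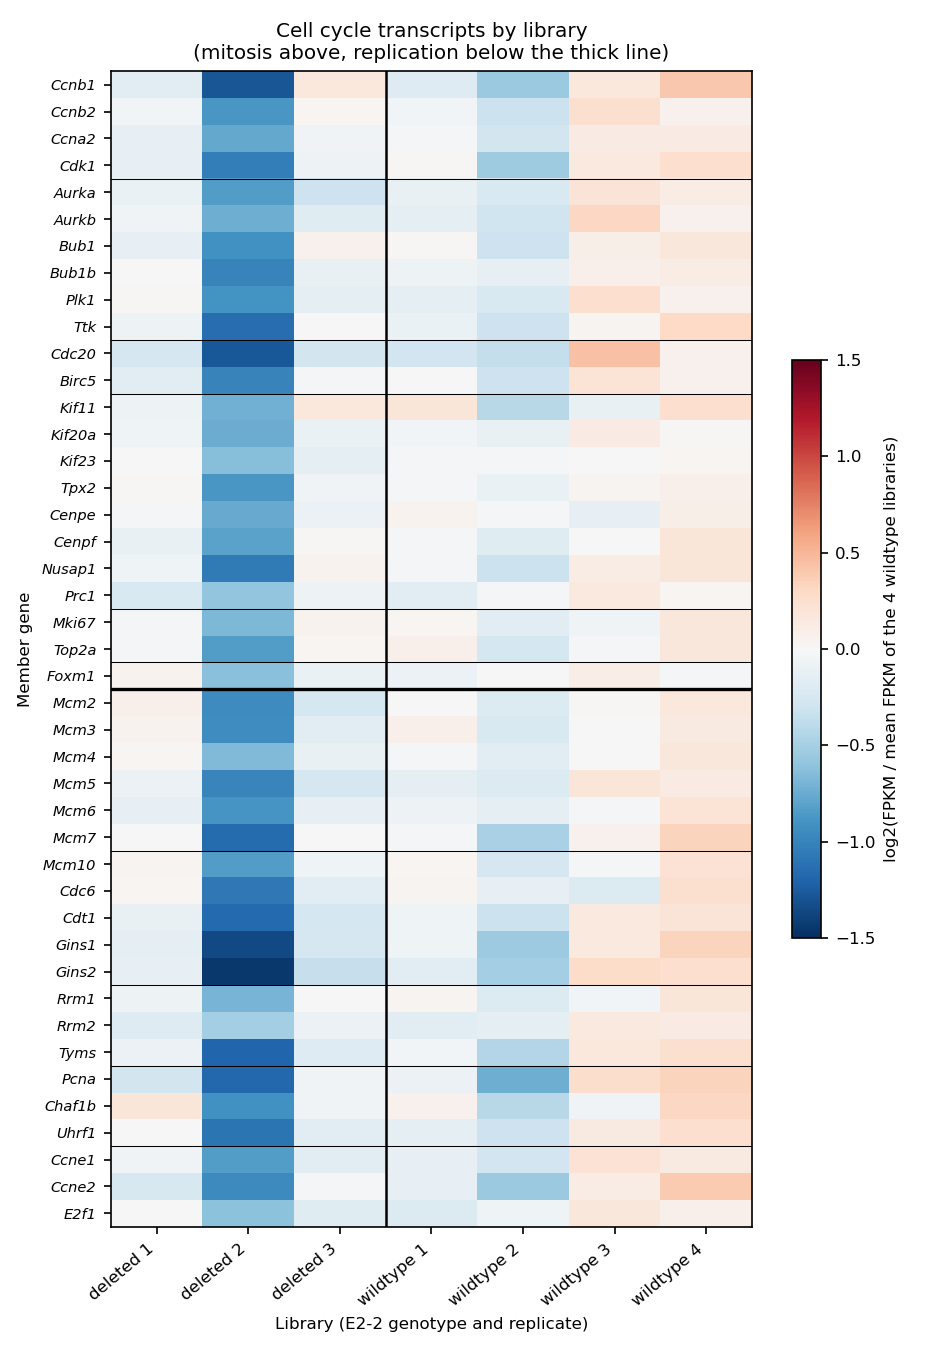
Each cell gives log2 of a gene's FPKM in 1 library over the mean FPKM of the 4 wildtype libraries, with the 43 genes in rows ordered by role and the 7 libraries in columns. The column of E2-2 deleted replicate 2 is the darkest blue in every row, and wildtype replicate 2 is below the wildtype mean in all 43 rows.

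The authors' tables give an interval around each FPKM. In deleted replicate 2 the upper bound lay below the lower bound of every other library in 23 of 23 and 20 of 20 genes. This count was not made over all genes. The intervals cover the estimate within 1 library and not the spread between kidneys. The least covered value, that of a replication gene in deleted replicate 2, rested on about 151 inferred fragments, and the least covered mitosis value on about 374. Since 44.4% is a high background, the libraries were also scaled by median-of-ratios factors, of which deleted replicate 2 had the lowest (0.898, against 0.995 to 1.06). The background then fell to 28.9%, and the count for the cell cycle genes was again 23 of 23 and 20 of 20. The count was the same after quantile normalization, for which the share of all genes is not given here.

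The test between genotypes called none of the 43. On the log2(FPKM + 1) scale, limma with Benjamini-Hochberg adjustment over all genes tested passed 0% of genes at an adjusted p of 0.05, members included. At an unadjusted p of 0.05, 0 of 43 members passed in either direction, while 1.2% of all genes passed as lower and 3.29% as higher. The smallest unadjusted limma p was 0.0650 (Aurka) among mitosis genes and 0.0805 (Mcm5) among replication genes. No member had groups that did not overlap, against 2.05% of all genes with every deleted library below every wildtype library and 2.84% with every one above. All 43 differences, deleted minus wildtype, were negative, as were 60.7% of all. Their median was -0.29 for mitosis genes and -0.34 for replication genes, against -0.05 for all genes.

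Those medians depended in large part on 1 library. Without deleted replicate 2 they were -0.05 for mitosis genes and -0.09 for replication genes, with all genes at 0.01. The difference was then negative in 17 of 23 and 18 of 20 genes, against 46.7% of all genes, and 0 of 43 passed an unadjusted p of 0.05 as lower, against 0.334%. Leaving out deleted replicate 1 instead gave medians of -0.41 and -0.53, and 2 mitosis and 4 replication genes then passed an unadjusted p of 0.05 as lower, where 4.74% of all genes did. Without deleted replicate 3 the medians were -0.42 and -0.46, with 1 mitosis and 0 replication genes past it as lower, against 1.72% of all genes.

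**Figure D2:**
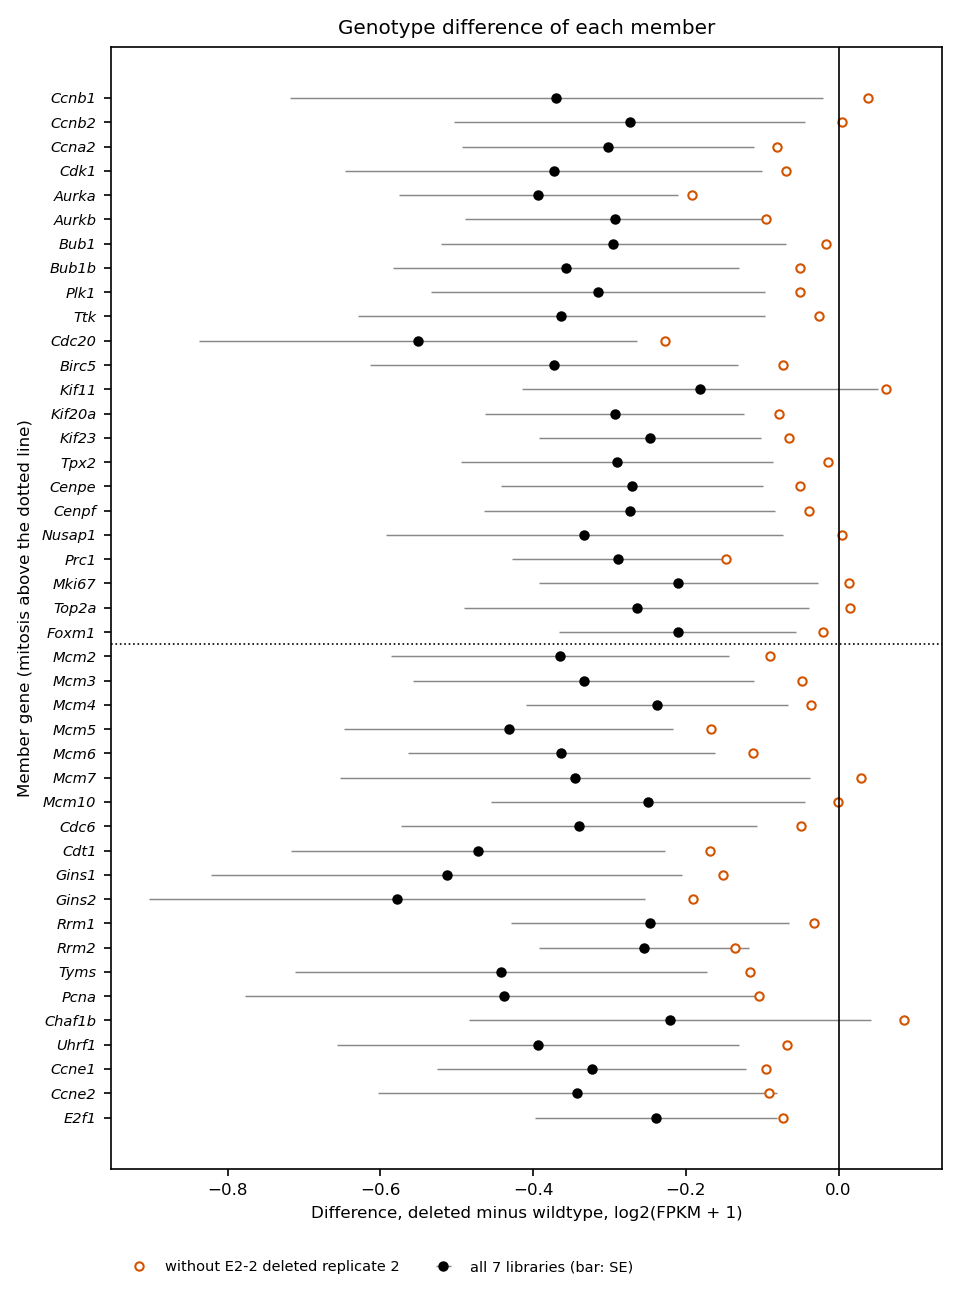
Horizontal position is the difference in log2(FPKM + 1), deleted minus wildtype, for each of the 43 genes in rows; filled points with bars of 1 SE use all 7 libraries and open points leave out E2-2 deleted replicate 2. Filled points lie at -0.58 (Gins2) to -0.18 (Kif11), all left of 0, and every open point lies to the right of its filled point, with a median of -0.05 for mitosis and -0.09 for replication genes.

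Within mitosis, the cyclins and their kinase are described first. Positions are given as the deposited tables have them, counted from 1, and their genome build is not given in the sources used here. Ccnb1 (chromosome 13, 101548694 to 101556441), cyclin B1, which activates Cdk1 for entry into mitosis, was at 32.3, 14.9 and 40.4 FPKM in deleted replicates 1 to 3 and 31.8, 24.7, 40.4 and 48.1 FPKM in wildtype replicates 1 to 4. Its deposited interval in deleted replicate 2 was 13.7 to 16.2 FPKM, and the next lowest library was wildtype replicate 2. Deleted replicate 3 and wildtype replicate 3 were level, so the groups overlapped apart from the single low library. The difference was -0.37 (SE 0.35, interval -1.18 to 0.44, adjusted p = 0.798), where SE is the standard error and the interval is limma's 95% confidence interval, and it was 0.04 without deleted replicate 2. Cdk1 (chromosome 10, 68799383 to 68815660), the kinase itself, was at 48.96, 25.96 and 50.6 FPKM in deleted replicates 1 to 3 and 54.2, 36.7, 59.03 and 63.4 FPKM in wildtype replicates 1 to 4. Deleted replicates 1 and 3 lay within the wildtype range, and the difference was -0.37 (SE 0.27, interval -1.01 to 0.26, adjusted p = 0.795). Ccnb2 and Ccna2, the cyclins B2 and A2, followed with differences of -0.27 and -0.30, and deleted replicate 2 at 54.8% and 58.7% of the wildtype mean.

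The mitotic kinases were low in the same library. Plk1 (chromosome 7, 129302951 to 129313389), polo-like kinase 1, which acts in centrosome maturation and cytokinesis, was at 31.6, 16.7 and 28.04 FPKM in deleted replicates 1 to 3 and 28.3, 26.7, 36.9 and 32.6 FPKM in wildtype replicates 1 to 4. Aurkb (chromosome 11, 68859145 to 68865164), the kinase of the chromosomal passenger complex, was at 30.02, 18.7 and 27.6 FPKM in deleted replicates 1 to 3 and 28.3, 25.4, 38.5 and 32.5 FPKM in wildtype replicates 1 to 4. For both genes, deleted replicates 1 and 3 lay inside the wildtype range and deleted replicate 2 lay under it. Aurka (chromosome 2, 172181696 to 172196006), the kinase of the spindle poles, was at 26.2, 15.7 and 22.7 FPKM in deleted replicates 1 to 3 and 26, 24.1, 32.2 and 30.4 FPKM in wildtype replicates 1 to 4. Here deleted replicate 3 also fell short of every wildtype library, while deleted replicate 1 did not. The differences were -0.32 (SE 0.22, adjusted p = 0.795) for Plk1, -0.29 (SE 0.20, adjusted p = 0.795) for Aurkb and -0.39 (SE 0.18, interval -0.82 to 0.03, adjusted p = 0.795) for Aurka, which was -0.19 without deleted replicate 2. The exact permutation p over the 35 ways to choose 3 of the 7 libraries was 0.143 for Aurka, where the smallest p possible is 0.0286. The checkpoint kinase genes Bub1, Bub1b and Ttk stood at 53.2%, 49.8% and 45.2% of the wildtype mean in deleted replicate 2.

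Cdc20 (chromosome 4, 118105506 to 118109948), the activator of the anaphase-promoting complex (APC/C), the ubiquitin ligase that starts anaphase, was at 48.04, 23.8 and 47.2 FPKM in deleted replicates 1 to 3 and 47.1, 44.6, 77.6 and 59.8 FPKM in wildtype replicates 1 to 4. Its wildtype values split, with replicates 3 and 4 above replicates 1 and 2, and deleted replicates 1 and 3 sat beside the latter. The difference of -0.55 (SE 0.29, interval -1.22 to 0.11, adjusted p = 0.795) was the most negative among the mitosis genes. Birc5, which encodes survivin of the chromosomal passenger complex, differed by -0.37, with deleted replicate 2 at 49.9% of the wildtype mean.

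**Figure D3:**
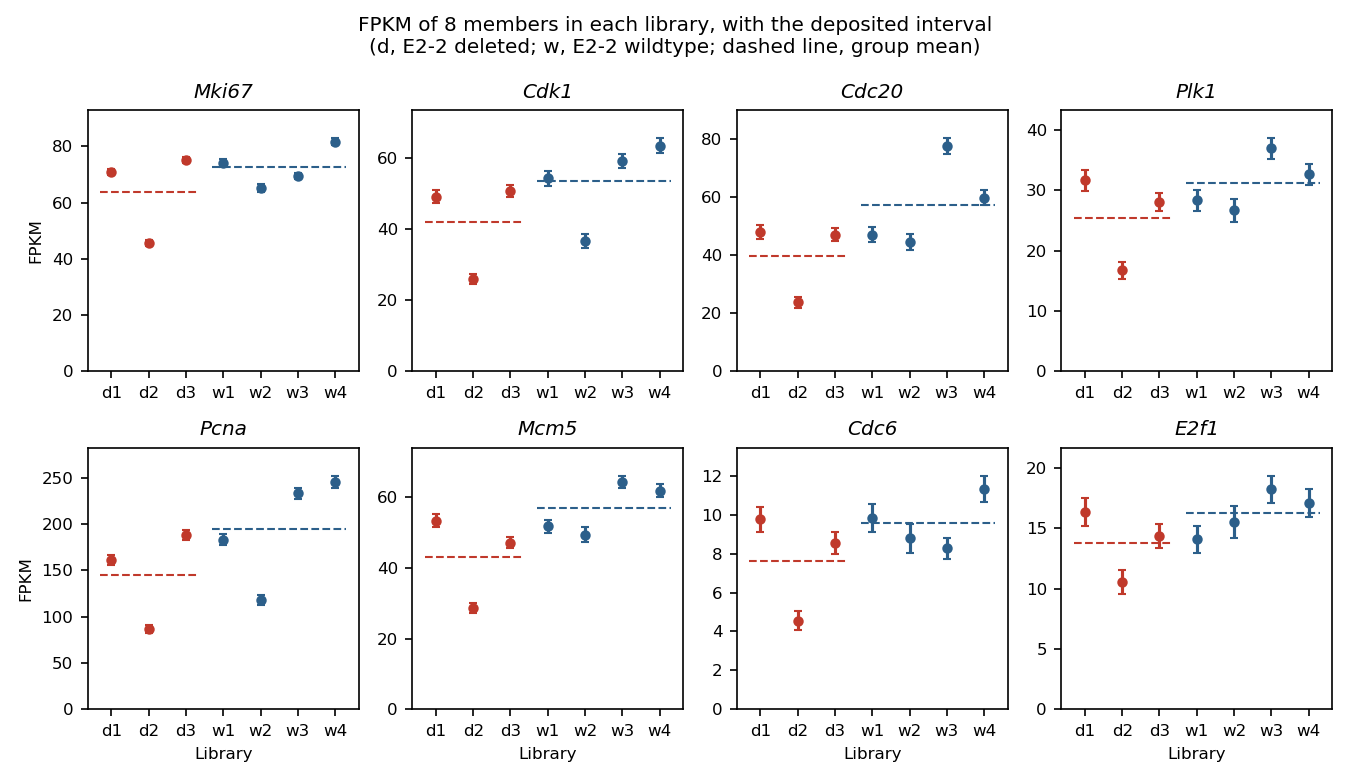
FPKM (vertical axis, from 0) of 8 genes in each of the 7 libraries, with the deposited interval as a bar and the group mean as a dashed line. In each panel the second deleted library (d2) is the lowest, such as 26.0 FPKM for Cdk1 and 28.5 FPKM for Mcm5, while d1 and d3 lie at or near the wildtype points.

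The 8 genes of spindle and kinetochore proteins stood at 48.1% (Nusap1) to 66.3% (Prc1) of the wildtype mean in deleted replicate 2. Kif20a, a kinesin of the central spindle, was at 41, 25.6 and 40.3 FPKM in deleted replicates 1 to 3 and 41.8, 39.95, 46.6 and 43.6 FPKM in wildtype replicates 1 to 4. Its wildtype libraries were within a narrow band, and deleted replicates 1 and 3 were at the lower edge of it. Prc1 (chromosome 7, 87439351 to 87461145), which bundles antiparallel microtubules in the central spindle, was at 36.7, 28.5 and 40.8 FPKM in deleted replicates 1 to 3 and 38.4, 42.2, 47.7 and 44.04 FPKM in wildtype replicates 1 to 4. Deleted replicate 1 was also below every wildtype library, and deleted replicate 3 was not. The differences were -0.29 (SE 0.17, adjusted p = 0.795) for Kif20a and -0.29 (SE 0.14, interval -0.61 to 0.03, adjusted p = 0.795) for Prc1, with an exact permutation p of 0.0857 for each. Kif11, the bipolar spindle motor, had the least negative difference, -0.18, and 0.06 without deleted replicate 2. Kif23, Tpx2, Cenpe, Cenpf and Nusap1, which serve the midzone, spindle assembly, kinetochores and spindle microtubules, had differences between -0.33 (Nusap1) and -0.25 (Kif23). In wildtype, Kif23 had an SD of 0.347 FPKM around a mean of 28.5 FPKM (n = 4), and deleted replicate 2 was at 18.3 FPKM.

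A pair of widely used proliferation markers was also lowest in deleted replicate 2. Mki67 (chromosome 7, 142881471 to 142908062), which encodes the Ki-67 protein of the mitotic chromosome surface, was at 70.9, 45.5 and 75.2 FPKM in deleted replicates 1 to 3 and 74.1, 65.3, 69.5 and 81.6 FPKM in wildtype replicates 1 to 4. Top2a (chromosome 11, 98854261 to 98885503), the topoisomerase that untangles chromosomes, was at 128, 72.6 and 133 FPKM in deleted replicates 1 to 3 and 137, 109, 128 and 147 FPKM in wildtype replicates 1 to 4. In both, deleted replicates 1 and 3 were inside the wildtype range, and the mean of those 2 libraries was 73.1 FPKM for Mki67 and 131 FPKM for Top2a, against wildtype means of 72.6 ± 7.02 and 130 ± 16.2 FPKM (SD, n = 4). With all 3 deleted libraries the means were 63.9 ± 16.1 and 111 ± 33.6 FPKM (SD, n = 3), and the differences were -0.21 (SE 0.18, interval -0.63 to 0.21, adjusted p = 0.795) and -0.26 (SE 0.23, interval -0.79 to 0.26, adjusted p = 0.795). Foxm1 (chromosome 6, 128313012 to 128325904), the transcription factor of many mitotic genes, was at 24.4, 15.3 and 22.05 FPKM in deleted replicates 1 to 3 and 22.1, 23.5, 25.3 and 23.4 FPKM in wildtype replicates 1 to 4. For this gene deleted replicate 1 was the highest library after wildtype replicate 3, deleted replicate 3 was just below the lowest wildtype value, and the difference was -0.21 (SE 0.15, adjusted p = 0.795).

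Among replication genes, the 6 subunits of the MCM helicase stood at 45.0% (Mcm7) to 63.4% (Mcm4) of the wildtype mean in deleted replicate 2. Mcm2 (chromosome 6, 88833468 to 88848774) was at 56.1, 27.7 and 44.3 FPKM in deleted replicates 1 to 3 and 53.4, 46.4, 53.9 and 59.6 FPKM in wildtype replicates 1 to 4. Mcm5 (chromosome 8, 77633427 to 77652338) was at 53.4, 28.5 and 47.2 FPKM in deleted replicates 1 to 3 and 51.9, 49.4, 64.3 and 61.9 FPKM in wildtype replicates 1 to 4. For these subunits deleted replicate 3 was below every wildtype library and deleted replicate 1 was within their range. Mcm6 (chromosome 1, 130228168 to 130256233) was at 89.4, 52.6 and 89.1 FPKM in deleted replicates 1 to 3 and 92.2, 88.1, 95.6 and 112 FPKM in wildtype replicates 1 to 4. There deleted replicates 1 and 3 were nearly equal and just above the lowest wildtype value. The differences were -0.36 (SE 0.22, adjusted p = 0.795) for Mcm2, -0.43 (SE 0.22, interval -0.93 to 0.07, adjusted p = 0.795) for Mcm5 and -0.36 (SE 0.20, adjusted p = 0.795) for Mcm6. The remaining subunits, Mcm3, Mcm4 and Mcm7, had differences of -0.33, -0.24 and -0.35, and that of Mcm7 was 0.03 without deleted replicate 2.

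The 5 genes that load or start the helicase had a median of 44.4% of the wildtype mean in deleted replicate 2, the lowest median of the roles described. Cdc6 (chromosome 11, 98769203 to 98785256), which loads MCM at origins, was at 9.78, 4.55 and 8.57 FPKM in deleted replicates 1 to 3 and 9.85, 8.79, 8.29 and 11.3 FPKM in wildtype replicates 1 to 4. Cdt1 (chromosome 8, 125091915 to 125097030), its partner in loading, was at 19.8, 9.498 and 17.8 FPKM in deleted replicates 1 to 3 and 20.4, 17.1, 23.7 and 24.4 FPKM in wildtype replicates 1 to 4. Both had deleted replicates 1 and 3 within the wildtype range. The differences were -0.34 (SE 0.23, adjusted p = 0.795) for Cdc6 and -0.47 (SE 0.24, interval -1.04 to 0.10, adjusted p = 0.795) for Cdt1, or -0.05 and -0.17 without deleted replicate 2. Gins2, a subunit of the GINS complex of the active helicase, was at 38.2, 15.3 and 32.8 FPKM in deleted replicates 1 to 3 and 36.9, 29.2, 50.4 and 49.5 FPKM in wildtype replicates 1 to 4. It had the most negative difference of all 43 genes, -0.58 (SE 0.32, adjusted p = 0.795), and its partner Gins1 had -0.51. Mcm10, an activator of the helicase, had -0.25, which was -0.00 without deleted replicate 2.

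Pcna (chromosome 2, 132075022 to 132078916), the sliding clamp of the replication fork, was the most abundant of the 43 transcripts per length, at 162, 86.5 and 188 FPKM in deleted replicates 1 to 3 and 183, 118, 234 and 246 FPKM in wildtype replicates 1 to 4. Wildtype replicate 2 was the lowest library after deleted replicate 2, and the wildtype values alone spanned 118 to 246 FPKM, so the difference of -0.44 (SE 0.34, interval -1.22 to 0.35, adjusted p = 0.795) lay inside a wide interval. Rrm2 (chromosome 12, 25393119 to 25399011), the small subunit of ribonucleotide reductase, was at 58.6, 47.3 and 63.2 FPKM in deleted replicates 1 to 3 and 60.2, 61.2, 74.6 and 73.1 FPKM in wildtype replicates 1 to 4. This gene had the smallest shortfall in deleted replicate 2, and deleted replicate 1 was also just below the wildtype values. Its difference was -0.25 (SE 0.14, adjusted p = 0.795). Of the other genes of nucleotide supply, Rrm1, the large subunit, differed by -0.25, and Tyms, thymidylate synthase, by -0.44. Chaf1b, of the chromatin assembly factor at the fork, and Uhrf1, which helps to copy DNA methylation, differed by -0.22 and -0.39. Without deleted replicate 2 the difference of Chaf1b was 0.09.

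The genes of the G1 to S switch came next. Ccne1 (chromosome 7, 38883003 to 38892509), cyclin E1, was at 24.03, 14.02 and 22.3 FPKM in deleted replicates 1 to 3 and 22.9, 20.5, 29.1 and 27.4 FPKM in wildtype replicates 1 to 4. Ccne2 (chromosome 4, 11118501 to 11131926), cyclin E2, was at 13.9, 8.495 and 16.2 FPKM in deleted replicates 1 to 3 and 15.2, 11.2, 17.9 and 21.6 FPKM in wildtype replicates 1 to 4. E2f1 (chromosome 2, 154385375 to 154395588), an E2F activator, was at 16.3, 10.6 and 14.3 FPKM in deleted replicates 1 to 3 and 14.1, 15.5, 18.2 and 17.1 FPKM in wildtype replicates 1 to 4. In each of these, deleted replicates 1 and 3 were within the wildtype range and deleted replicate 2 was below it. The differences were -0.32 (SE 0.20, adjusted p = 0.795) for Ccne1, -0.34 (SE 0.26, adjusted p = 0.795) for Ccne2 and -0.24 (SE 0.16, adjusted p = 0.795) for E2f1.

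The wildtype libraries also differed among themselves. Wildtype replicate 2 was below the wildtype mean in all 43 genes. Its medians were 83.6% and 83.0% of that mean for mitosis and replication genes. Over all genes its median was 98.1%, and 7202 of 13469 were below the mean on the log2(FPKM + 1) scale. It was the next lowest library in 18 of 23 mitosis and 15 of 20 replication genes, a count not made over all genes. The highest library was wildtype replicate 4 in 28 genes and wildtype replicate 3 in 15, against 3303 and 2616 of all 13469 genes. The deposited tables of 3 libraries have names beginning with BM (deleted replicate 3 and the wildtype replicates numbered 3 and 4), and 4 tables have names beginning with BI. What the letters stand for is not given. Both BM wildtype libraries were above both BI ones in 18 of 23 and 15 of 20 genes, against 24.3% of all genes. Within BI the median difference was -0.33 for mitosis and -0.32 for replication genes, with all genes at -0.08. Within BM, which holds a single deleted library and not deleted replicate 2, it was -0.14 and -0.27, with all genes at 0.01. There 22 of 23 mitosis and 20 of 20 replication differences were negative, against 6546 of 13469 genes. With the prefix as a term of the model the medians were -0.25 and -0.31.

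Other genes of the same pathway were taken from lists by function, and none passed an adjusted p of 0.05. Of 41 measured replication and S phase genes beyond the 20, all 41 had negative differences and their lowest value in deleted replicate 2. The 2 with the smallest p were Asf1b, a histone chaperone, at 19.3, 12.6 and 19.1 against 24.1, 17.6, 26.7 and 22.9 FPKM, and Pold2, a subunit of DNA polymerase delta, at 34.1, 19.05 and 28.6 against 35.9, 28.9, 48.6 and 40.6 FPKM, with differences of -0.41 (SE 0.19, adjusted p = 0.795) and -0.50 (SE 0.23, adjusted p = 0.795). Of 46 further mitosis genes, 46 had negative differences and 45 had their lowest value in deleted replicate 2. Dlgap5, a spindle microtubule protein, was at 18.7, 13.3 and 18.3 against 20.1, 19.7, 24.5 and 22.2 FPKM, and all 3 deleted libraries were below all 4 wildtype ones. Such a lower group without overlap was seen in 1 of the 46 and 1 of the 41 genes, against 2.05% of all genes. The difference of Dlgap5 was -0.36, with an unadjusted limma p of 0.0359 and an adjusted p of 0.795. Hmmr, a spindle protein of the same kind of role, was at 21.2, 14.2 and 22.99 against 23.4, 22.8, 29.7 and 25.9 FPKM. The medians over these lists were -0.29 and -0.27 with all libraries, and -0.03 and -0.01 without deleted replicate 2.

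**Figure D4:**
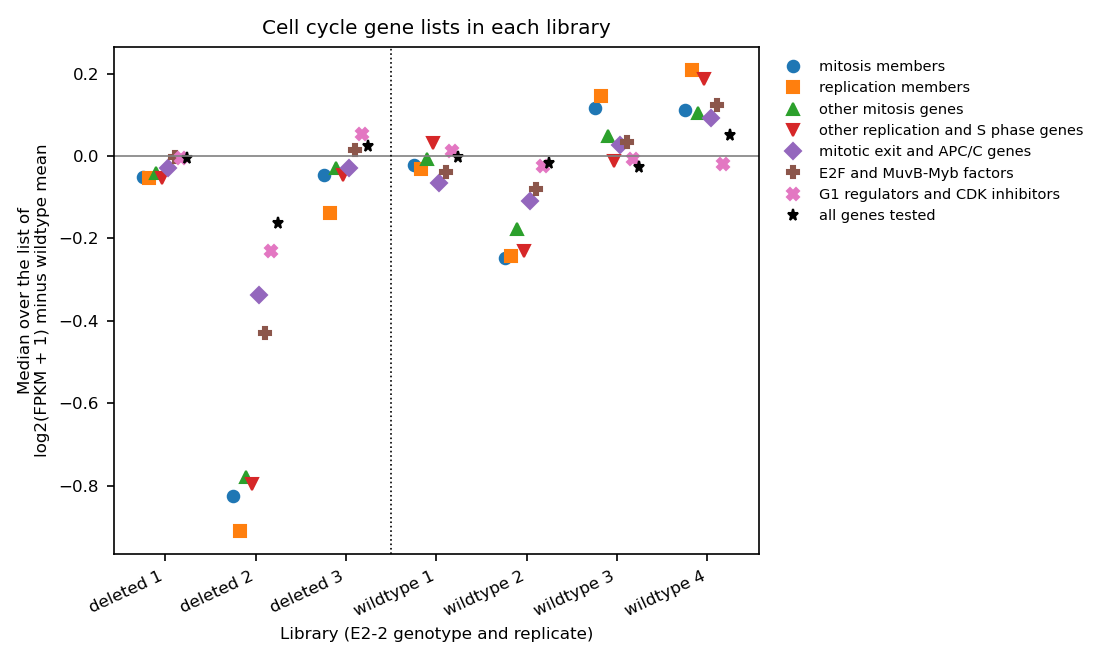
Each point is the median over a gene list of log2(FPKM + 1) in 1 library minus the wildtype mean, by library along the horizontal axis. In E2-2 deleted replicate 2 the mitosis and replication genes lie at -0.82 and -0.91, the further lists of both kinds at -0.78 and -0.80, and all genes tested (stars) at -0.16; in the other libraries these points lie between -0.25 and 0.21.

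The lists of regulators were more mixed. Of 15 genes of mitotic exit and the APC/C, 12 had their lowest value in deleted replicate 2, and Ube2s, a ubiquitin-conjugating enzyme of that complex, was at 50.7, 31.2 and 54.7 against 52.6, 49.4, 85.3 and 72.3 FPKM. Anapc11, the RING subunit, was at 12.6, 11.9 and 12.6 against 14.5, 13.1, 20.05 and 14.3 FPKM, lower in all 3 deleted libraries than in any wildtype one, with a difference of -0.29 (SE 0.15, adjusted p = 0.795). Of 16 measured E2F, MuvB-Myb and NF-Y factors, 14 had their lowest value there. Lin52, a MuvB subunit, was at 6.17, 5.02 and 6.45 against 6.999, 6.84, 7.35 and 6.85 FPKM, again without overlap, and E2f4, a repressor-type E2F, was at 36.9, 26.8 and 31.04 against 35.4, 34.3, 39.8 and 38.5 FPKM. Their differences were -0.23 (SE 0.12, adjusted p = 0.795) and -0.23 (SE 0.12, adjusted p = 0.795). Every deleted library was below every wildtype one in 1 of these 15 and 2 of these 16 genes, against 2.05% of all genes.

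In the list of 21 G1 regulators and CDK inhibitors, 11 had their lowest value in deleted replicate 2, near the 44.4% of all genes, and 6 had their highest there, against 17.2% of all genes. The inhibitor genes Cdkn2b (p15) and Cdkn2a had the smallest p. Cdkn2b was at 6.81, 11.3 and 6.798 against 3.93, 6.95, 4.72 and 4.26 FPKM, with a difference of 0.63 (SE 0.23, adjusted p = 0.795) and an unadjusted limma p of 0.0249. Cdkn2a was at 0.991, 3.32 and 1.47 against 0.944, 1.002, 0.745 and 0.428 FPKM, highest in deleted replicate 2, with a difference of 0.65 (SE 0.29, adjusted p = 0.795). It reached the minimum mean of 1 FPKM for the test only through deleted replicate 2, so its small p is no support for a difference. Cdkn1a (p21) was at 134, 244 and 186 against 148, 175, 116 and 109 FPKM, highest in the library where the 43 genes were lowest, with a difference of 0.44 (SE 0.24, adjusted p = 0.795). Cdkn1b (p27) was at 22.01, 23.5 and 22.9 against 25.1, 25.4, 31.5 and 25.1 FPKM, without overlap and lower in the deleted group, with an exact permutation p of 0.0286 and an adjusted limma p of 0.795. In this list 2 of 21 genes were lower without overlap, against 2.05% of all genes. Cdkn1c (p57), also an inhibitor gene, was at 181, 118 and 176 against 187, 136, 178 and 143 FPKM. Its groups overlapped, and it was lowest in deleted replicate 2. Of the inducers of the cycle, Ccnd1 and Ccnd2, the cyclins D1 and D2, were at 82.1, 89.03 and 96.3 against 82.8, 87.1, 85.7 and 71.2 FPKM and 104, 131 and 107 against 93.6, 110, 119 and 110 FPKM, and neither was lowest in deleted replicate 2. Myc was at 34.7, 16.9 and 29.5 against 34.2, 25.1, 24.9 and 29.1 FPKM and Mycn, which is expressed in nephron progenitors, at 23.9, 4.83 and 13.96 against 21.7, 14.5, 23.6 and 26.4 FPKM, both lowest there.

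**Figure D5:**
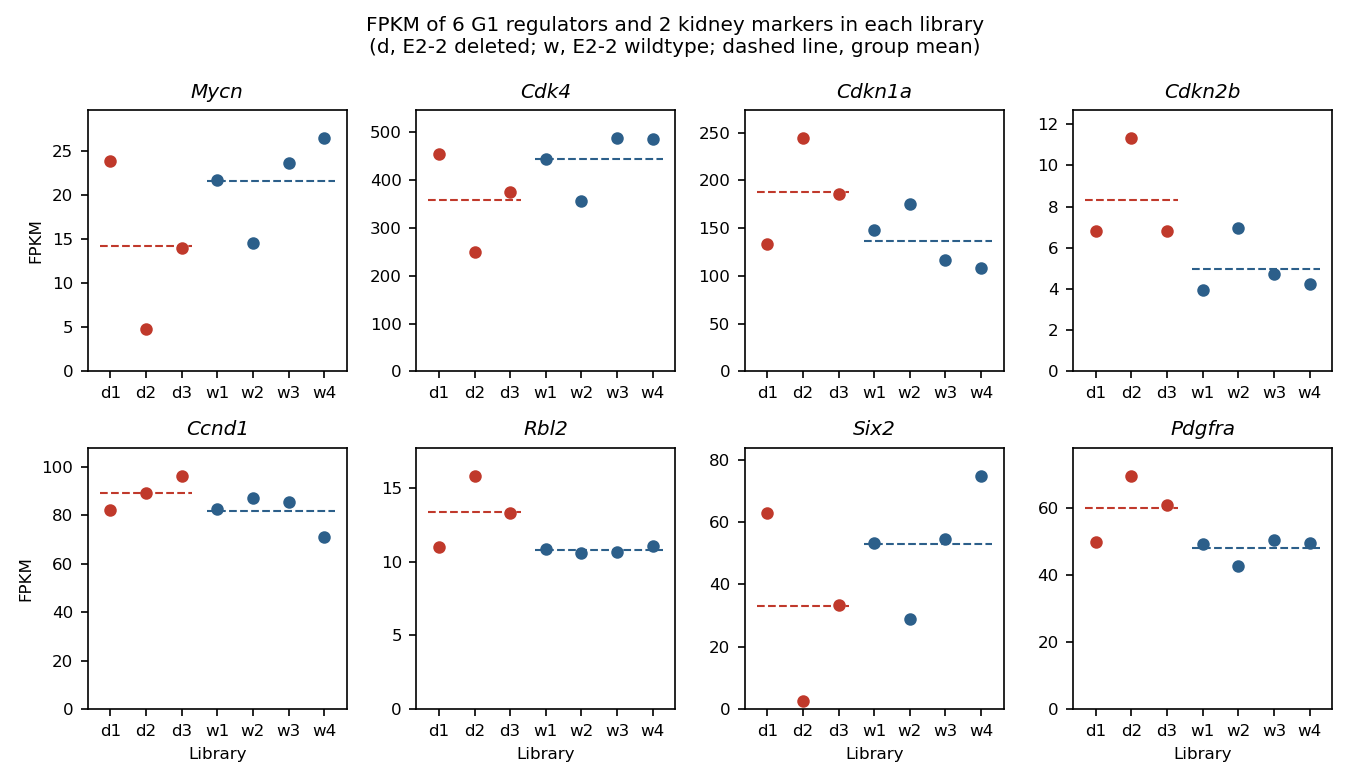
FPKM (vertical axis, from 0) of 6 G1 regulators and 2 kidney markers in each of the 7 libraries, with the group mean as a dashed line. In the second deleted library (d2), Mycn (4.83 FPKM), Cdk4 (250 FPKM) and Six2 (2.69 FPKM) have their lowest values and Cdkn1a (244 FPKM), Cdkn2b (11.3 FPKM), Rbl2 (15.8 FPKM) and Pdgfra (69.7 FPKM) their highest. Cdk4, Rbl2, Six2 and Pdgfra were picked after their values were seen, and the panels do not stand for the whole list. Of its 21 G1 regulators and CDK inhibitors, 11 were lowest and 6 highest in d2.

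Several markers of the cell types of the kidney were also low in the same library, and those named here were picked after their values were seen. Over 19 kidney lineage markers the summed level was 227 FPKM in deleted replicate 2, 449 and 554 FPKM in the other deleted libraries and 380 to 635 FPKM in wildtype, and 10 of 19 had their lowest value there, a share near the 44.4% of all genes. Six2, of the nephron progenitors, was at 62.8, 2.69 and 33.5 against 53.4, 28.98, 54.6 and 74.8 FPKM, Cited1, of the same cells, at 65.6, 3.603 and 39.3 against 54.1, 26.6, 62.6 and 76.8 FPKM, and Foxd1, of the stromal progenitors, at 13.5, 2.298 and 12.2 against 11.96, 13.1, 26.7 and 18.2 FPKM. Pdgfra, a stromal receptor gene, was at 50.1, 69.7 and 60.9 against 49.3, 42.7, 50.6 and 49.5 FPKM, highest in deleted replicate 2. Wildtype replicate 2, the next lowest for most of the 43 genes, also had the lowest Six2 and Cited1 of the wildtype libraries, but not the lowest Foxd1, which was in wildtype replicate 1. Of cells from outside the epithelial lineages, 10 erythroid markers summed to 11.5 FPKM in deleted replicate 2, against 120 and 560 FPKM in the other deleted libraries and 70.1 to 260 FPKM in wildtype. Summed levels in deleted and wildtype libraries ran from 291 to 425 and 209 to 480 FPKM for 8 endothelial markers, 146 to 292 and 115 to 240 FPKM for 9 macrophage markers, 32.1 to 42.7 and 32.2 to 43.01 FPKM for 8 muscle markers, and 23.8 to 102 and 21.2 to 86.0 FPKM for 9 neural markers. For 7 melanocyte markers they ran from 26.6 to 95.2 FPKM, all above the wildtype 3.87 to 24.0 FPKM, and for 7 germ cell markers from 1.70 to 3.45 and 2.22 to 3.92 FPKM, with Stra8 and Pou5f1 at 0 in every library. The part of these markers in the cell cycle values was not tested.

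As for the labels themselves, Tcf4 FPKM, which covers the whole gene, was 33.5, 41.7 and 41.99 in deleted and 48.8, 58.1, 28.7 and 39.2 in wildtype libraries. These values overlapped, and a whole-gene FPKM that includes exons outside a deletion does not check the genotype. Axin2, a target of beta-catenin, was at 32.0, 94.9 and 37.9 FPKM in deleted and 20.2, 26.4, 18.6 and 19.9 FPKM in wildtype libraries, highest in the library where the cell cycle genes were lowest. The libraries held 14.5 to 26.6 mega-fragments (M), as inferred from the deposited intervals, and deleted replicate 2, at 17.6 M, was not the shallowest.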

How the data were processed

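RNA of cultured fetal mouse kidney was sequenced after poly-A selection in 7 libraries (3 E2-2 deleted, 4 E2-2 wildtype, all with activated beta-catenin). Per the file headers, the authors deposited for each gene an FPKM value, the bounds of its interval and a status. The submitters' processing notes list Cufflinks 2.0.2, TopHat2 2.0.4 and CASAVA 1.8.2 and give no role for any of them. The genome build is not given in the sources used here. FPKM is relative to the library's total, so a library with more RNA from a few transcripts has lower values of the rest. No read counts were in the tables used, so no count model was run. An inferred number of fragments came from the width of each interval (the square of 2 times the FPKM over the distance to the upper bound); 79.5% to 80.4% of these lay within 0.05 of a whole number.

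Entries of 1 symbol were summed. A symbol was left out if any of its entries had a status other than OK in any library or a locus under 200 bases. The 25 symbols that 1 table held as dates were restored from the same loci of another. The genotypes were compared on log2(FPKM + 1) with limma 3.58.1 in R 4.3.3 (7 libraries, 2-sided, with a mean-variance trend), and p-values were adjusted by Benjamini-Hochberg over the 13469 genes with a mean of at least 1 FPKM, at a threshold of 0.05. The log2 scale with 1 added understates changes of low genes. The fit was tested on simulated data with independent noise. Their changes were larger than the differences of the members, and no library deviated, so that test does not bear on the members' results. For single genes, a 2-sided exact permutation test used all 35 splits. The members, lists and rules were chosen with earlier results of these data known. Genes shown in full were 15 fixed members and the 4 of smallest p in each class; of the other lists, the 2 of smallest p and 7 fixed regulators. Cdk4, Rbl2, Six2, Cited1, Foxd1 and Pdgfra were added as illustrations after their values were seen. Promoter windows are from RefSeq, GRCm38.p6.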

Additional observations from a re-analysis of the deposited data

Results flagged for a closer look

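Among 60 cell cycle genes examined in the 4 wildtype libraries, Cdkn1b stood apart in wildtype replicate 3, at 31.5 FPKM against 25.1 to 25.4 FPKM in the other wildtype libraries. The gap was 0.965 of the whole range, above Dixon's critical value for 4 samples. Chance gives such a gap in about 5 of 100 groups, so 1 gene among 60 is no more than chance gives. The non-overlap of Cdkn1b between genotypes does not rest on that library, since the other wildtype libraries were also above the 3 deleted ones, at 22.0, 23.5 and 22.9 FPKM.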

How the results depend on the processing

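With a weight per library 1 gene passed an adjusted p of 0.05 (1141 at an unadjusted p of 0.05), and with no filter on low values 1 did (1000 of 19355), against 0 (605) in the fit reported; neither was a cell cycle gene of the 43. Leaving out 1 library at a time, the count was 0 each time, with 250 (without E2-2 deleted replicate 2) to 1473 (without E2-2 deleted replicate 1) at an unadjusted p of 0.05. The median difference then ranged from -0.42 to -0.05 for mitosis genes and from -0.53 to -0.09 for replication genes. A weight per library, which was 0.247 for deleted replicate 2 and 3.98 for deleted replicate 3, gave medians of -0.07 and -0.12. Of the 21 members shown in full, 20 were negative with these weights, 18 without deleted replicate 2 and 21 under each other setting tried, which were median-of-ratios scaling, quantile normalization, a pseudocount of 0.1 FPKM, a minimum mean of 5 FPKM, no filter, the file name prefix as a term, within each prefix, and without each other library. The counts of lowest libraries under 2 further scalings were added after the data were seen. A count test was not run, because the tables hold FPKM. No paired analysis was possible because replicate numbers follow the order of deposit.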
